A study of Arabidopsis thaliana with 8 samples.

Results

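Xylan synthesis genes of secondary walls were followed as 10 loci picked by name: IRX9 (AT2G37090), IRX10/GUT2 (AT1G27440), IRX14 (AT4G36890), IRX7/FRA8 (AT2G28110), IRX8/GAUT12 (AT5G54690), PARVUS/GATL1 (AT1G19300), IRX15 (AT3G50220), IRX15-L (AT5G67210), GUX1/PGSIP1 (AT3G18660) and ESK1/TBL29 (AT3G55990). They were found by locus code among the 25665 loci of the array, and all 10 were among the 20334 loci tested. Each was read by 1 probe, which was well above background on all 8 arrays and carried no outlier or saturation flag.

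Xylan is the main hemicellulose of the secondary walls of dicot plants, where it lies against cellulose in xylem vessels and fibres. Its backbone of linked xylose units is made in the Golgi by glycosyltransferases, it carries glucuronic acid side chains and acetyl groups, and a short sequence of other sugars ends the chain. Loss of several of these genes collapses the xylem vessels, which gave the irregular xylem (IRX) genes their name.

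Total RNA of whole 2-week-old Arabidopsis thaliana seedlings, ecotype Columbia-0, was measured on 1-colour Agilent arrays. One group was wild type (n = 4) on medium without hygromycin, and the other carried 35S:MYB87-SRDX (n = 4) on medium with hygromycin. Both groups had 16 h light and 8 h dark, 23 °C and 1% sucrose. MYB87 belongs to the R2R3 MYB transcription factors. SRDX is a repression motif, and a factor fused to it represses its targets in a dominant way. The comparison asks which genes differ when the fusion is expressed. The 35S promoter drives expression in most tissues, and no group carried MYB87 without SRDX. The labels call the plants of both groups T2 and pool 5 seedlings a sample, but do not say how many independent transgenic lines there were. Genotype, hygromycin and slide cannot be told apart, because each group was hybridised on a slide of its own. Nothing in the labels says that the samples of a group were separate cultures, so the spread behind the p-values may be technical only, and they measure no more than the spread between these samples.

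The array values are log2 signals, each less the 75th percentile of its array, so a value of 0 is the signal that 75% of spots lie below. The percentile itself lay between 1539 and 2055 intensity units. Levels of different genes come from different probes and are not set against each other. The MYB87 probe, which checks the labels, read -5.48, -7.20, -7.44 and -7.08 in wild-type replicates 1 to 4 and 5.75, 5.52, 5.58 and 2.54 in MYB87-SRDX replicates 1 to 4. It was higher in every MYB87-SRDX sample, with replicate 4 well below the other three. The probe was well above background on 2 of the 4 wild-type arrays. The seedlings expressed the 7 xylem markers listed and the secondary wall cellulose synthases CESA4, CESA7 and CESA8 well above background on all 8 arrays, as the name of the gene group presumes.

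Of the 10 xylan synthesis genes, 7 fell in MYB87-SRDX, none rose and 3 did not pass the test (limma, Benjamini-Hochberg adjusted p below 0.05 over all loci tested). The 7 were IRX9, IRX10, IRX8, PARVUS, IRX15, IRX15-L and GUX1, with falls from 1.40-fold for PARVUS to 2.69-fold for IRX8. IRX7, IRX14 and ESK1 did not pass. Over all loci tested, 12.5% were called lower and 15.1% higher. At an unadjusted p below 0.05 the counts were also 7 lower and 0 higher, beside 19% lower and 22.3% higher over all loci tested. All 10 differences were below 0, with a median of -0.77 on the log2 scale, beside a median of 0.01 over all loci tested. The ranges of the groups did not overlap for the same 7 genes, with wild type above MYB87-SRDX, as was so for 13.2% of all loci tested. IRX8, IRX9, IRX15 and IRX15-L were called and at least 2-fold lower, as were 2.43% of all loci tested. Normexp background correction of all spots called 0 of the 10, and 7 once spots of high local background were left out. Both normexp runs added 50 intensity units to each spot, which makes log2 differences smaller, most so for dim genes. In whole seedlings, fewer xylem cells and less RNA per xylem cell cannot be told apart.

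**Figure D1:**
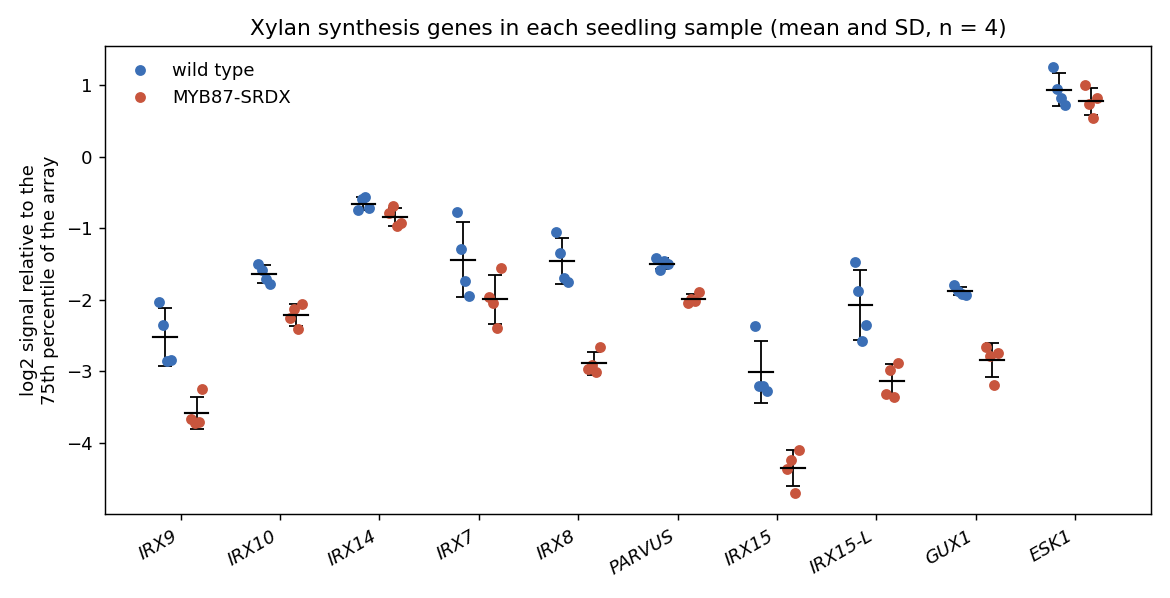
Log2 signal minus that of the array's 75th percentile (vertical axis) for the 10 xylan synthesis genes, ordered by role. Each point is 1 seedling sample (blue, wild type; red, MYB87-SRDX), long bars are group means and error bars are the SD of 4 samples. The groups are separate for IRX9, IRX10, IRX8, PARVUS, IRX15, IRX15-L and GUX1 and overlap for IRX14, IRX7 and ESK1.

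The backbone is built by a complex in which IRX10, a family GT47 enzyme, has the xylosyltransferase activity and IRX9 and IRX14, of family GT43, are required beside it. IRX9 read -2.04, -2.35, -2.86 and -2.83 in wild-type replicates 1 to 4 and -3.67, -3.72, -3.70 and -3.24 in the MYB87-SRDX replicates. Every MYB87-SRDX sample lay below every wild-type sample, and MYB87-SRDX replicate 4 was the highest of its group. IRX9 fell by 1.06 ± 0.20 (SE; 95% interval -1.53 to -0.59; adjusted p = 0.00914), which is 2.09-fold.

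IRX10 read -1.50, -1.58, -1.71 and -1.78 in wild type and -2.26, -2.13, -2.40 and -2.06 in MYB87-SRDX. The samples within a group lay close together and the groups were separate. IRX10 fell by 0.57 ± 0.10 (interval -0.79 to -0.35; adjusted p = 0.00623), a smaller fold (1.48) than that of IRX9. IRX14 read -0.75, -0.60, -0.56 and -0.72 in wild type and -0.79, -0.70, -0.97 and -0.93 in MYB87-SRDX. MYB87-SRDX replicate 2 lay inside the wild-type range, so the groups overlapped. The difference of -0.19 ± 0.08 did not pass (interval -0.38 to 0.00, adjusted p = 0.121). Its interval does not reach the estimates for IRX9 and IRX10, but it overlaps the interval of IRX10. IRX10 and IRX14 were not tested against each other. The difference of IRX14 was -0.10 with a different background correction, normexp without spots of high local background.

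IRX7, IRX8 and PARVUS are needed for the sugar sequence at the reducing end of the chain. IRX8, a GT8 protein of the GAUT family, read -1.06, -1.34, -1.70 and -1.75 in wild type and -2.97, -2.91, -3.01 and -2.66 in MYB87-SRDX. The lowest wild-type sample lay above the highest MYB87-SRDX sample by more than the range within either group. IRX8 fell by 1.43 ± 0.16 (interval -1.80 to -1.05; adjusted p = 0.00181), which placed it 277 of 20334 loci from the lowest difference upwards and first among the 10 genes.

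PARVUS, another GT8 protein, read -1.42, -1.59, -1.46 and -1.51 in wild type and -2.05, -1.99, -2.01 and -1.89 in MYB87-SRDX. Both groups were tight, with SDs of 0.073 and 0.067, and they did not overlap. PARVUS fell by 0.49 ± 0.07 (interval -0.64 to -0.34; adjusted p = 0.00286), the smallest of the 7 falls. IRX7, a GT47 protein, read -0.78, -1.30, -1.73 and -1.95 in wild type and -1.96, -2.04, -2.40 and -1.56 in MYB87-SRDX. MYB87-SRDX replicate 4 lay above wild-type replicates 3 and 4, and the wild-type samples spread widely, with an SD of 0.52. The difference of -0.55 ± 0.27 was close in size to that of IRX10 but did not pass (interval -1.18 to 0.08; adjusted p = 0.166). Without wild-type replicate 1 it was -0.33.

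IRX15 and IRX15-L are closely related DUF579 proteins of the Golgi, needed together for normal xylan chain length. IRX15 read -2.36, -3.20, -3.20 and -3.27 in wild type and -4.36, -4.24, -4.70 and -4.10 in MYB87-SRDX. Wild-type replicate 1 stood above the rest of its group, and the groups were separate with or without it. IRX15 fell by 1.34 ± 0.22 (interval -1.85 to -0.83; adjusted p = 0.00564), or 2.53-fold, and by 1.13 without wild-type replicate 1. With normexp without spots of high local background the fall was 0.79.

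IRX15-L read -1.48, -1.88, -2.57 and -2.36 in wild type and -3.31, -2.98, -3.35 and -2.88 in MYB87-SRDX. Wild-type replicates 1 and 2 were the highest, and the groups were separate. IRX15-L fell by 1.06 ± 0.24 (interval -1.61 to -0.51; adjusted p = 0.0162). This call was lost without wild-type replicate 2, where the adjusted p was 0.0506.

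GUX1, a GT8 glucuronosyltransferase, adds glucuronic acid side chains to the backbone. It read -1.80, -1.87, -1.91 and -1.93 in wild type and -2.66, -2.79, -3.19 and -2.74 in MYB87-SRDX. The wild-type samples were nearly equal, and each lay above all MYB87-SRDX samples. GUX1 fell by 0.96 ± 0.12 (interval -1.23 to -0.70; adjusted p = 0.00214), which is 1.95-fold.

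ESK1 transfers acetyl groups to xylan. It read 1.25, 0.94, 0.82 and 0.72 in wild type and 1.00, 0.74, 0.54 and 0.81 in MYB87-SRDX. The groups overlapped over most of their ranges. The difference of -0.16 ± 0.14 did not pass (interval -0.48 to 0.15, adjusted p = 0.403). This interval overlaps that of PARVUS (-0.64 to -0.34), and ESK1 was not tested against PARVUS. The difference of ESK1 was -0.058 without wild-type replicate 1, -0.085 without MYB87-SRDX replicate 3 and -0.073 with median scaling.

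The 10 genes deviated together within groups. Wild-type replicate 1 was the highest of its group for 9 of the 10 genes, with a mean deviation of 0.33 from the group mean, and wild-type replicate 4 was the lowest for 6. MYB87-SRDX replicate 3 was the lowest of its group for 8 genes and replicate 4 the highest for 7. IRX14 was the exception in wild type, with replicate 1 lowest of its group. With the mean over all arrays of each gene set to 0, the mean of the 10 genes was 0.72, 0.44, 0.23 and 0.18 in wild-type replicates 1 to 4 and -0.39, -0.36, -0.60 and -0.21 in MYB87-SRDX replicates 1 to 4. MYB87-SRDX replicate 4 also had the lowest MYB87 signal of its group. The MYB87 signal of MYB87-SRDX replicate 3, at 5.58, lay between those of replicates 1 and 2, at 5.75 and 5.52. A link between the MYB87 signal and the xylan genes was not tested. Wild-type replicate 1 was the highest of its group as well for the means of the secondary wall cellulose genes and the xylem, root hair and endodermis markers below. It was not the highest for the primary wall cellulose synthases or the cambium, phloem and mesophyll markers. How often it was the highest over all loci tested was not counted.

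Root markers moved with part of the spread of the 10 genes. The mean of the 6 root hair and endodermis markers, centred in the same way, was 1.04, 0.45, -0.82 and -0.40 in wild type and 0.20, 0.32, -0.79 and -0.01 in MYB87-SRDX. Wild-type replicate 1 was the highest and MYB87-SRDX replicate 3 the lowest of their groups for both sets of genes. The lowest wild-type sample was replicate 3 for the root markers and replicate 4 for the xylan genes. With this level as a covariate, a fit chosen after seeing the data, 7 of the 10 xylan genes were again called lower, and IRX7 differed by -0.48 with an adjusted p of 0.0614.

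Another 29 genes of xylan synthesis were taken from a wider list, which was drawn up with earlier results of these arrays known. Of these, 11 fell, 1 rose and 17 did not pass, and their median difference was -0.26. The shares over all loci tested, 12.5% lower and 15.1% higher, stand beside these counts and the family counts below. Of the 11 falls, 5 were called in all 19 alternative settings other than normexp as first run (GXM2, GXM3, TBL31, UXS2 and UXS6), and 6 were lost in at least 1 of them. The number of falls was 6 without wild-type replicate 2, 6 without MYB87-SRDX replicate 1 and 7 on the authors' value table.

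Methylation of the glucuronic acid side chains is the work of the GXM genes, of which 2 of 3 fell. GXM2 (AT4G09990) read -2.82, -2.99, -3.72 and -3.59 in wild type and -4.84, -4.24, -4.98 and -4.56 in MYB87-SRDX, so that the groups were separate. It fell by 1.37 ± 0.24 (adjusted p = 0.00681), and GXM3 (AT1G09610) fell by 0.88 ± 0.15 (adjusted p = 0.00594). With normexp without spots of high local background these falls were 0.77 and 0.43. GXMT1 (AT1G33800) differed by -0.69 ± 0.29 (adjusted p = 0.11), with wild-type values from 0.30 to 1.61 and MYB87-SRDX values from -0.18 to 0.65.

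Acetylation had 3 falls among 11 genes of the TBL and RWA families. TBL31 (AT1G73140), a relative of ESK1, read -5.14, -5.14, -5.22 and -5.33 in wild type and -6.38, -6.66, -6.63 and -6.39 in MYB87-SRDX. It was dim and very even within groups, and it fell by 1.31 ± 0.09 (adjusted p = 0.000565), but by only 0.27 with normexp without spots of high local background. TBL33 (AT2G40320) fell by 0.85 ± 0.25 (adjusted p = 0.0368) and RWA3 (AT2G34410), of the RWA acetylation proteins, by 0.30 ± 0.09 (adjusted p = 0.0437), and both were among the 6 less stable calls.

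UXS enzymes make UDP-xylose, the sugar donor of the backbone, and 2 of 6 UXS genes fell. UXS6 (AT2G28760) read 1.48, 1.35, 1.13 and 1.06 in wild type and 0.24, 0.23, 0.21 and 0.56 in MYB87-SRDX, with no overlap and a fall of 0.94 ± 0.12 (adjusted p = 0.0026). UXS2 (AT3G62830) fell by 0.62 ± 0.13 (adjusted p = 0.0114).

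The UXT proteins carry UDP-xylose into the Golgi, and all 3 UXT genes passed the test, in different directions. UXT3 (AT1G06890) read 1.49, 1.42, 1.36 and 1.47 in wild type and 2.10, 1.80, 1.82 and 1.86 in MYB87-SRDX. It was the one gene of the 39 xylan genes that rose, by 0.46 ± 0.08 (adjusted p = 0.0069), and its call held in each of those 19 settings. UXT1 (AT2G28315) fell by 0.82 ± 0.19 (adjusted p = 0.0184) and UXT2 (AT2G30460) by 0.41 ± 0.11 (adjusted p = 0.0324), both among the less stable calls.

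**Figure D2:**
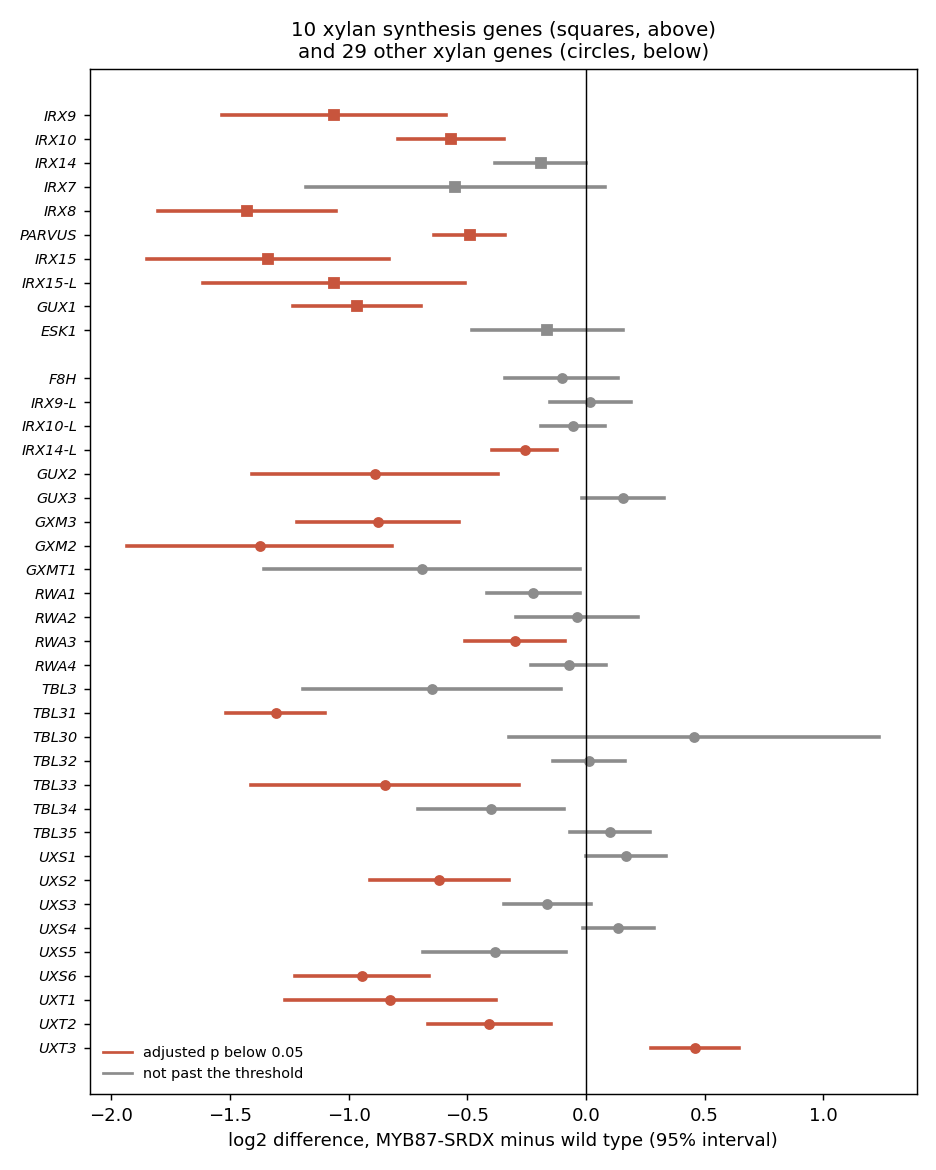
Log2 difference, MYB87-SRDX minus wild type (horizontal axis), with the 95% interval of the limma fit, for the 10 xylan synthesis genes (squares) and 29 other xylan genes (circles). Red marks an adjusted p below 0.05. The squares all lie left of 0, from -1.43 for IRX8 to -0.16 for ESK1, and UXT3 is the one red symbol to the right.

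Several of the 10 genes have a close relative in the genome, and in 8 pairs the difference between the genes was taken on each array and compared between the groups. IRX9 and its relative IRX9-L (AT1G27600) differed most. IRX9-L read 0.11, 0.18, 0.30 and 0.26 in wild type and 0.37, 0.18, 0.22 and 0.15 in MYB87-SRDX, with a difference of 0.02 ± 0.07 (adjusted p = 0.872), so that IRX9 differed by -1.08 ± 0.28 more than its relative. IRX10 differed by -0.51 ± 0.10 more than IRX10-L (AT5G61840), whose own difference was -0.05 ± 0.06 (adjusted p = 0.502). IRX9 differed by -0.87 ± 0.27 more than IRX14, its fellow GT43 gene. In these 3 pairs the groups did not overlap and the exact two-sided permutation p was 0.0286, the smallest that 4 against 4 arrays can give. After adjustment over the 8 pairs it was 0.0762, so none passed. With only 3 pairs at the smallest p, none could pass, however large the differences.

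The other 5 pairs had overlapping groups. IRX7 and F8H (AT5G22940) gave -0.45 ± 0.35 (exact permutation p = 0.257, adjusted 0.343), or -0.19 without wild-type replicate 1, and F8H itself differed by -0.10 ± 0.10 (limma adjusted p = 0.482). IRX14 and IRX14-L (AT5G67230) gave 0.07 ± 0.07 (exact permutation p = 0.343, adjusted 0.392). IRX14-L fell by 0.26 ± 0.06 (limma adjusted p = 0.0176), a call lost in 5 of the 19 settings. IRX15 and IRX15-L gave -0.28 ± 0.15 (exact permutation p = 0.114, adjusted 0.183), in a pair where both genes fell.

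GUX1 and GUX2 (AT4G33330), which together place most of the glucuronic acid on stem xylan, gave -0.08 ± 0.21 (exact permutation p = 0.743, adjusted 0.743). GUX2 fell by 0.89 ± 0.23 (limma adjusted p = 0.0239), and the fall was 0.57 with normexp without spots of high local background. Their relative GUX3 (AT1G77130), which acts on primary wall xylan, differed by 0.16 ± 0.08 (adjusted p = 0.154). ESK1 and TBL3 (AT5G01360) gave 0.49 ± 0.18 (exact permutation p = 0.0857, adjusted 0.171), and TBL3 itself differed by -0.65 ± 0.24 (limma adjusted p = 0.0742).

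**Figure D3:**
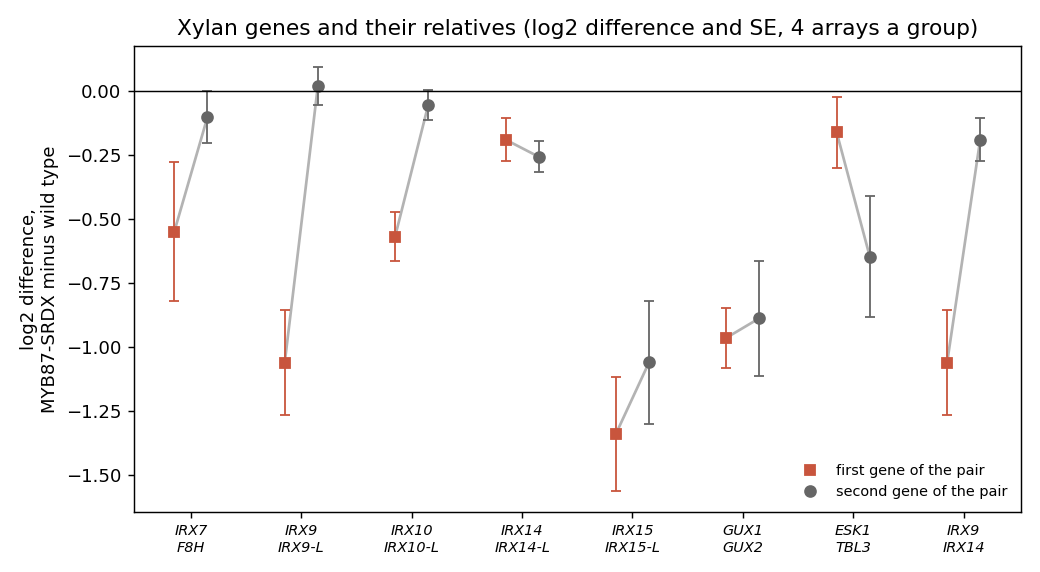
Log2 difference, MYB87-SRDX minus wild type (vertical axis), of each xylan synthesis gene (square) and the gene it was paired with (circle), with the SE of the limma fit. IRX9 lies at -1.06 beside 0.02 for IRX9-L, and IRX15 and IRX15-L lie at -1.34 and -1.06.

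Lists of other secondary wall genes were read in the same way, without a test against the xylan genes. Their counts, and those of the cell type markers, stand beside 12.5% lower and 15.1% higher over all loci tested. All 5 secondary wall cellulose genes fell, with a median of -1.04. CTL2, a chitinase-like protein of secondary wall cellulose, fell by 1.19 ± 0.19 (adjusted p = 0.00519) and CESA8, a cellulose synthase subunit, by 1.19 ± 0.18 (adjusted p = 0.00388). None of the 3 primary wall cellulose synthases passed, and their median was -0.07.

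Of 12 regulators of secondary walls, 9 were tested and 6 fell, with a median of -0.91 over the 9. The NAC factor SND2 fell by 1.26 ± 0.14 (adjusted p = 0.00165). MYB46 fell by 0.91 ± 0.16 (adjusted p = 0.00736), VND6 by 0.93 ± 0.14 (adjusted p = 0.00447) and VND7 by 0.76 ± 0.09 (adjusted p = 0.00181). The calls of SND2, MYB46, VND6 and VND7 held in all 19 settings. MYB83 had the largest difference of the list, -1.66 ± 0.63, but did not pass (adjusted p = 0.0857). Its wild-type replicate 1 read -1.28, against -3.87, -4.22 and -4.30 in replicates 2 to 4. MYB103 fell by 1.11 ± 0.24 (adjusted p = 0.0138), a call lost with normexp without spots of high local background, where the difference was -0.33. SND2 fell by 0.81 there. KNAT7, a homeodomain regulator, fell by 0.81 ± 0.25 (adjusted p = 0.0449) with overlapping groups, a call lost in 10 of the 19 settings. MYB52 and MYB54 did not pass, with differences of 0.08 ± 0.31 and 0.18 ± 0.33 (adjusted p = 0.867 and 0.71). SND1, NST1 and NST2, NAC regulators of fibres and other thick-walled cells, were not well above background on any array.

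Cell type markers were read beside the xylan genes. Of 7 xylem markers 5 fell, with a median of -0.86, among them the lignin laccase LAC4 by 1.51 ± 0.19 (adjusted p = 0.00256) and the vessel protease XCP1 by 1.33 ± 0.23 (adjusted p = 0.00598). Their summed signal, in units of the 75th percentile, was 8.33 to 13.2 in wild type and 4.53 to 5.57 in MYB87-SRDX. Such a sum weighs the brightest probes most, and sums of different lists are not set against each other. All 7 markers were well above background on each of the 8 arrays.

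All 3 cambium markers fell, with a summed signal of 4.49 to 4.89 in wild type and 3.49 to 3.95 in MYB87-SRDX. WOX4, a cambium homeodomain factor, fell by 0.89 ± 0.19 (adjusted p = 0.0144). The receptor kinase PXY fell by 0.34 ± 0.09 (adjusted p = 0.0299), a call lost in 8 of the 19 settings, and it kept a difference of only -0.16 with normexp without spots of high local background. All 3 phloem markers passed as well, with a summed signal of 9.49 to 11.2 in wild type and 5.42 to 7.62 in MYB87-SRDX. SUC2, the sucrose carrier of companion cells, fell by 0.97 ± 0.17 (adjusted p = 0.00658). The phloem factor APL fell by 0.46 ± 0.09 (adjusted p = 0.00943), lost in 2 settings. The third marker, SEOR1, a sieve element protein, fell by 0.26 ± 0.08 (adjusted p = 0.0452), a call lost in 11 of the 19 settings.

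Outside the vasculature none of 3 mesophyll, 3 root hair and 3 endodermis markers passed, with medians of 0.01, -0.31 and 0.10. The SEs of single markers were 0.12 to 0.27 for mesophyll, 0.38 to 0.44 for root hairs and 0.41 to 0.51 for the endodermis. With SEs of this size, falls like those of IRX10 and PARVUS could be missed in the root hair and endodermis markers. The summed signal was 147 to 214 in wild type and 162 to 200 in MYB87-SRDX for mesophyll, 0.484 to 1.84 and 0.485 to 0.846 for root hairs, and 1.81 to 6.63 and 1.77 to 5.10 for the endodermis. The part of cell type proportions in the fall of the xylan genes was not tested.

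**Figure D4:**
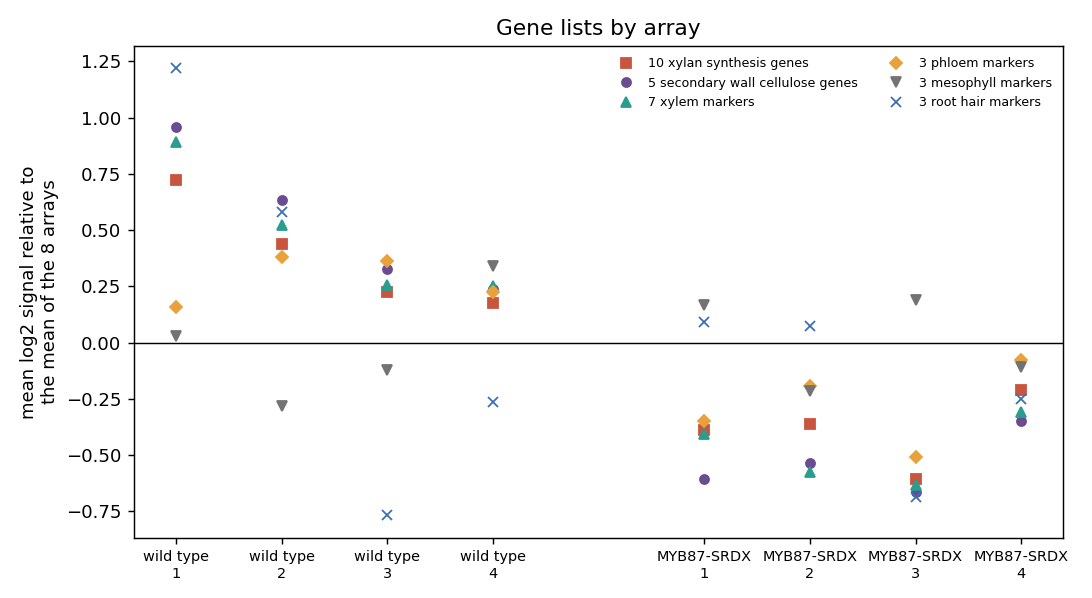
Mean log2 signal of 6 gene lists on each array (vertical axis), each gene set to a mean of 0 over the 8 arrays. The xylan genes (red squares) lie between 0.18 and 0.72 in wild type and between -0.60 and -0.21 in MYB87-SRDX, beside the secondary wall cellulose genes, xylem markers and phloem markers, while the mesophyll and root hair markers lie on both sides of 0 in both groups.

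The mean profile of the 10 genes over the 8 arrays was compared with 19381 loci that were well above background on all arrays. The measure was the root mean square distance between centred log2 values. The 5 nearest loci outside the group were IAA13 (AT2G33310), an Aux/IAA auxin response repressor, at 0.0536, AT3G53100 at 0.0727, the laccase gene LAC10 (AT5G01190) at 0.073, MLO13 (AT4G24250), of the MLO membrane protein family, at 0.0732, and RHA2A (AT1G15100), a RING ubiquitin ligase, at 0.0786. Their differences lay between -0.76 and -0.70, which follows from picking loci for nearness to this profile and is no separate result. The 10 genes themselves are part of the mean they were compared with. Among them, IRX10 was nearest to the mean profile, at 0.137, and IRX14 farthest, at 0.365. These placed IRX10 at rank 79 and IRX14 at rank 3473 of the 19381 loci, so loci outside the group lay nearer than any of the 10.

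The 10 loci are spread over all 5 chromosomes. Of the 20 genes that flank them in the TAIR10.1 gene table, 18 were tested. Among these 1 fell and 3 rose, beside 12.5% lower and 15.1% higher over all loci tested. The one that fell was AT3G18670 beside GUX1, by 0.93 ± 0.18 (adjusted p = 0.00917). IRX15-L lies near IRX14-L with 1 gene, AT5G67220, between them, and that gene rose by 0.42 ± 0.11 (adjusted p = 0.0273). These genes were chosen by position, after the xylan values were seen.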

How the data were processed

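The deposited scanner files give an intensity per spot, on a linear scale. Per the submitters' processing notes, the software was Agilent Feature Extraction 9.1.3.1. The authors' deposited value table holds the same processed intensity times a constant, 0.00109 for wild type and 0.00117 for MYB87-SRDX. This was found by dividing it by the scanner values, so it is linear, uncentred and in the same direction. Its column medians were 0.129, 0.15, 0.123 and 0.105 in wild type and 0.108, 0.133, 0.114 and 0.114 in MYB87-SRDX.

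Each array held 37685 spots of 37478 probes, control spots left out, and 63.1% to 65.5% of spots were well above background. Spots with an outlier flag (3 to 44 an array) were set to missing, and 1 spot was saturated. The log2 processed signal was reduced by the 75th percentile of its array, with no pseudocount, and repeated spots were averaged. Probes had to be well above background on 3 or more arrays of either group, and each locus was read by its brightest such probe. Differences were tested with limma 3.58.1 (lmFit, eBayes) in R 4.3.3, with Benjamini-Hochberg adjustment over all loci tested and a threshold of 0.05, and figures were drawn with matplotlib 3.10.9. Pairs of genes were compared by an exact permutation test over 70 assignments. The steps were tested on simulated data. The number of arrays limits the precision.

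The genes and lists were chosen with earlier results of these data known. Named are the 10 genes, MYB87, other xylan genes past the threshold or in a pair, the 2 largest changes past the threshold in each other list, and the 5 loci nearest in profile. GXMT1, GUX3, CESA4, CESA7, SND1, NST1, NST2, KNAT7, MYB52, MYB54, SEOR1 and the flanking genes were named after their values were seen. The regulators MYB46, MYB83, VND6 and VND7 also lie outside this rule and were named with their values known. Symbols come from the TAIR10.1 gene table, with UXT1 to UXT3, IRX7, IRX8, IRX10 and GUX1 among the exceptions. That table gives FRA8, GAUT12, GUT2 and PGSIP1 for IRX7, IRX8, IRX10 and GUX1. The alternatives were other scalings, background correction, value source, filters on dim probes, probe choice, variance models, array weights, a replicate block and leaving out each array.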

Additional observations from a re-analysis of the deposited data

Results flagged for a closer look

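In 3 of the 22 sets of 4 samples examined (the 10 xylan genes and MYB87 in each group), 1 sample stood far from the others by Dixon's test. Chance flags about 1 in 20 such sets. IRX15 in wild-type replicate 1 was the highest of its group, at -2.36 against -3.20 for the nearest sample, a gap of 0.926 of the group's range. IRX9 in MYB87-SRDX replicate 4 was the highest of its group, at -3.24 against -3.67, a gap of 0.897 of the range. Both lay on the same side of the other group as the rest of their own. MYB87 in MYB87-SRDX replicate 4 was the lowest of its group, at 2.54 against 5.52, a gap of 0.929 of the range. Without MYB87-SRDX replicate 4 the difference of IRX9 was -1.18, and without wild-type replicate 1 that of IRX15 was -1.13.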

How the results depend on the processing

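Under 19 of the 20 alternatives 6 or 7 of the 10 genes were called lower, and none higher in any, with a range of 6 to 7 when 1 array was left out. Normexp background correction called 0 of the 10 lower, 1 of the other xylan genes lower, and 500 loci lower and 850 higher. On MYB87-SRDX replicate 4, 8 spots had a high local background, up to 27603 against a median of 52.5, and the fitted background mean was -494 with them and 12.8 without. Without such spots, an alternative chosen after seeing the data, normexp called 7 of the 10 lower. The scanner tables read for it give median spot signals, which stood in for the mean. Median scaling called 1381 loci lower, and 66.0% of its calls were higher against 54.7% as reported. It moved the median of all loci to 0.10, and normexp moved it to 0.11. The authors' values called 1095 loci lower, 1102 higher and 7 of the other xylan genes lower. With the replicate number as a block, 7 of the 10 genes and 7 of the other xylan genes were lower, and 1800 loci lower and 1812 higher were called. The block ended no call among the 10 genes. The numbers were not taken as pairs, since the correlations of same-numbered deviations were 0.0947, 0.0897, 0.155 and -0.223 and 2 of the 4 correlated best with their own number, and the paired sign-flip test of gene pairs cannot go below 0.125. Leaving out 1 array gave 1375 to 2897 loci lower, 1576 to 3109 higher and 6 to 13 of the other xylan genes lower. The lowest counts of loci came without wild-type replicate 2, and without MYB87-SRDX replicate 1 there were 1522 lower and 1757 higher. The root marker covariate called 2 of the other xylan genes higher and 14 lower. The pair IRX15 minus IRX15-L turned to 0.27 with normexp and 0.094 without the high-background spots, and GUX1 minus GUX2 ran from -0.22 to 0.034 over arrays left out, with 0.034 without wild-type replicate 3. Neither was called in any setting. The difference of TBL31, a dim gene, was -1.31 as reported and -0.27 with normexp without the high-background spots. In that setting the fitted background mean was -3.87 to -0.83 on the wild-type arrays and 9.997 to 12.8 on the MYB87-SRDX arrays. The offset of 50 intensity units was added there too, beside TBL31 processed signals of 39.8 to 58.4 in wild type and 16.7 to 19.1 in MYB87-SRDX. The part of the offset and that of the fitted background in the smaller difference were not tested.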
